A study of Mus musculus with 93 samples.

Results

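Nucleolar ribosome biogenesis genes encode the proteins that transcribe, modify, cut and assemble ribosomal RNA on its way to a finished ribosome. Chosen by gene symbol from a list of 40 such genes, all 40 were measured, among 18193 genes that had a probe set with a single symbol on the array. Each gene was read by its brightest probe set on average, and these 40 probe sets all lay above the median of all probe set means, 4.79 on the log2 scale. The list was divided by role into 8 genes of RNA polymerase I (Pol I) transcription and its regulation, 4 box C/D and U3 snoRNP proteins, 4 box H/ACA snoRNP proteins, 10 genes of the small subunit processome and small subunit maturation, 12 genes of large subunit assembly and 2 nucleolar shuttling proteins.

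In the nucleolus, Pol I makes a long precursor RNA, small nucleolar ribonucleoproteins (snoRNPs) guide its methylation and pseudouridylation, and large assemblies trim it into the RNAs of the small and large subunit. The transcription factor Myc is known to drive many of these genes, and their level is high in growing cells such as activated lymphocytes. In resting blood leukocytes ribosome production is low.

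Peripheral blood leukocytes were studied in 65 samples from tumor-bearing MMTV/c-MYC females and in 28 samples from wild type, tumor-free females of like age and parity. Both groups carry the strain label FVB/NJ, and the source label of the controls reads FVB/N. In the transgenic mice, which were bred continuously, the mouse mammary tumor virus long terminal repeat drives c-MYC or a stabilized point mutant of it, mainly in the mammary gland, and the form behind each array is not stated in the sources used here. A training cohort held 32 tumor and 14 control arrays and a validation cohort 33 tumor and 14 control arrays, divided at random per the study. The tumor arrays themselves fell into sets that follow the numbers in their labels, and every result below was read within these sets.

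The late-numbered tumor arrays (numbers 6 to 32 in training and 9 to 33 in validation, n = 52) carried a bacterial poly-A spike-in, dap, at 6.57 to 10.8 on the log2 scale. The early-numbered tumor arrays (numbers 1 to 5 in training and 1 to 8 in validation, n = 13) had dap at 2.11 to 3.83, and the 28 control arrays at 1.74 to 3.55. The actin 5′ minus 3′ difference, a measure of RNA integrity and amplification, had a median of −0.5 in late-numbered tumor arrays, −1.4 in early-numbered tumor arrays and −0.6 in control arrays. No label names this split. Tumor status cannot be told apart from the spike-in in late-numbered arrays or from the actin difference in early-numbered arrays. In both sets it also cannot be told apart from the transgene, since all tumor arrays came from transgenic mice and all controls from wild type mice.

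Leukocyte markers also moved with the groups. Mean B cell marker level was 6.14 to 9.73 (median 8.43) in late-numbered tumor arrays, 7.25 to 9.5 (median 8.45) in early-numbered tumor arrays and 8.43 to 10.1 (median 9.49) in control arrays. Against controls, 13 of 14 B cell and 8 of 12 T cell markers were lower and 8 of 11 neutrophil markers higher in late-numbered tumor arrays. In early-numbered tumor arrays 10 B cell and 10 T cell markers were lower, with 1 neutrophil marker higher and 3 lower. The T cell mean was 8.56 to 11.3 in late-numbered tumor, 8.61 to 9.99 in early-numbered tumor and 9.31 to 10.8 in control arrays, and the neutrophil mean 10.9 to 12.7, 9.63 to 12.3 and 9.85 to 11.8 in the same order, so the labelled white blood cells carried the markers of these types on every array. Of the other lists, 5 of 6 monocyte markers were higher in late-numbered arrays. In early-numbered arrays 5 of 7 NK cell markers were lower and 3 of 5 erythroid markers higher. Of all genes 20.5% were lower and 25.6% higher in late-numbered arrays, and 29% and 34.3% in early-numbered ones. Among genes above the median of all probe set means these shares were 31.8% and 34.2%, and 46.9% and 16.3%. The control probe set for 18S RNA averaged 10.6 in late-numbered tumor, 10.8 in early-numbered tumor and 9.87 in control arrays. The part of these markers in the results below was not tested beyond the covariate fits given. In a mixed leukocyte sample, fewer cells of a type and less RNA per cell cannot be told apart.

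Array 19 of the validation tumors stood apart from the other late-numbered arrays. Its Myc level was 12.0, against 7.25 to 9.77 in the others, and its mean over the 40 members was 9.995, against 7.31 to 8.77. It was the highest late-numbered array at 38 members and the highest of all 93 arrays at 30. Its T cell and proliferation marker means, 11.3 and 8.60, were above all other late-numbered arrays, and its B cell and platelet means, 6.14 and 8.54, were below them. Array 9 of the validation tumors was the lowest late-numbered array at 29 members, with the highest erythroid marker mean of its set, 10.2. Array 2 of the validation tumors, an early-numbered one, had the lowest Myc level of its set, 4.46, against 4.93 to 7.76 in the others, and was the lowest of its set at 19 members.

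The hexamer CACGTG, the canonical E-box that Myc binds with its partner Max, was searched in the RefSeq promoter windows of assembly GRCm38.p6, which run from 250 bases before to 50 after a start of each gene. The hexamer is its own reverse complement, so a single search covers both strands. Of the 34 members with an entry, 6 (17.6%) held it, against 2187 of 27025 genes in the table (8.09%). These 30-base stretches are shown because the report turns on how the members relate to Myc. They are written 5′ to 3′ on the strand of the gene with the hexamer in capitals.
Nop2 (chr6:125131811-125131840, plus strand): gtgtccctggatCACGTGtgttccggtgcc
Utp18 (chr11:93885769-93885798, minus strand): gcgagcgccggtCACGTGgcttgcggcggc
Pes1 (chr11:3963965-3963994, plus strand): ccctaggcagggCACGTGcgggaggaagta
Wdr43 (chr17:71616220-71616249, plus strand): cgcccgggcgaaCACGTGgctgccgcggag
Utp20 (chr10:88826765-88826794, minus strand): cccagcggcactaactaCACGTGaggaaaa
Mybbp1a (chr11:72441347-72441376, plus strand): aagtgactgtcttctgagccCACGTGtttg
The first base of the hexamer lay at −60 in Nop2 and −20 in Utp18, upstream of the start, and at 3 in Pes1, 18 in Wdr43, 38 in Utp20 and 41 in Mybbp1a, counted from 1 at the start that the promoter window is built on, which in Wdr43 lies downstream of the start of the whole gene record. A match is a description of these letters and not of binding.

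Over all tumor arrays, 26 of 40 members (65%) were lower and 0 were higher than in control arrays by limma, set against 19.6% of all genes lower and 22.7% higher. Among the 10604 genes above the median level, 31.1% were lower and 23.2% higher. The median difference of the members was −0.32 on the log2 scale, against 0.07 over all genes. Fitted alone, the training cohort had 25 members lower and 0 higher (15.4% and 15.7% of all genes), and the validation cohort 11 lower and 0 higher (11% and 6.56% of all genes). Among genes above the median level these shares were 24.7% and 18.4% in training, and 17.9% and 9.15% in validation. In both cohorts 11 members were lower, against 9.73% of all genes and 16% of those above the median level. These members were Nolc1, Rrs1, Gar1, Noc3l, Wdr43, Noc4l, Pa2g4, Ddx21, Wdr3, Npm1 and Tcof1. No member passed a test of the difference between the cohorts (limma, interaction of tumor status with cohort, 0 of 40 at an adjusted p under 0.05 and 0 of 40 at an unadjusted p under 0.05). Of all 45037 probe sets 0 passed the adjusted and 549 the unadjusted threshold. Over all tumor arrays, the signs were the same in both cohorts for 37 of 40.

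With the B cell, T cell and neutrophil marker means of each array as covariates, 10 members were lower and 12 higher, and the median difference was 0.06. The same covariates gave 11 lower and 15 higher with a median of 0.11 in late-numbered arrays. In early-numbered arrays they gave 13 lower and 5 higher with a median of −0.11. The shares of all genes in these covariate fits are not given here. The counts can therefore not be read as particular to the members.

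Divided by label number, in late-numbered tumor arrays 22 members were lower and 5 higher than in controls, set against 20.5% and 25.6% of all genes (31.8% and 34.2% of those above the median level), with a median of −0.27. In early-numbered tumor arrays 30 were lower and 0 higher, against 29% and 34.3% of all genes (46.9% and 16.3% above the median level), with a median of −0.57. Both comparisons used the same 28 control arrays. Within cohorts, late-numbered arrays had 25 members lower and 1 higher in training (17.4% and 20.4% of all genes) and 12 lower and 3 higher in validation (14.8% and 16.6%), and early-numbered arrays 24 lower and 0 higher in training (22.2% and 29%) and 26 lower and 0 higher in validation (22.6% and 19.8%). Among genes above the median level the late-numbered shares were 27.7% and 28.1% in training and 23.7% and 25.5% in validation. The early-numbered ones were 36.4% and 14.3% in training and 37% and 9.05% in validation. In late-numbered arrays 12 members were lower and 0 higher in both cohorts. All genes stood there at 12.8% and 13.9%, and those above the median level at 21% and 22%. In early-numbered arrays 21 were lower and 0 higher in both cohorts. All genes stood there at 17.5% and 14.8%, and those above the median level at 29.2% and 6.84%. Utp18 and Nip7 were called in neither set by the brightest probe set, but the second probe set of Nip7 was lower in late-numbered arrays, at −0.70 (adjusted p = 5.16e-11), and higher in early-numbered arrays, at 0.29 (adjusted p = 0.0419).

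Compared directly, 22 members were higher and 12 lower in late-numbered than in early-numbered tumor arrays, against 31.5% and 38.3% of all genes (49.3% and 26% of those above the median level). The training cohort alone had 18 higher and 12 lower (26% and 32.1% of all genes), and the validation cohort 20 higher and 12 lower (28.1% and 28.6%). Among genes above the median level these shares were 41.9% and 22.7% in training, and 44% and 20.7% in validation. In both cohorts 17 members were higher and 12 lower, against 22.4% and 21.5% of all genes and 36.9% and 17% of those above the median level. The members differed from late-numbered to early-numbered arrays in both directions, from −1.31 for Rrs1 to 1.88 for Nob1.

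**Figure D1:**
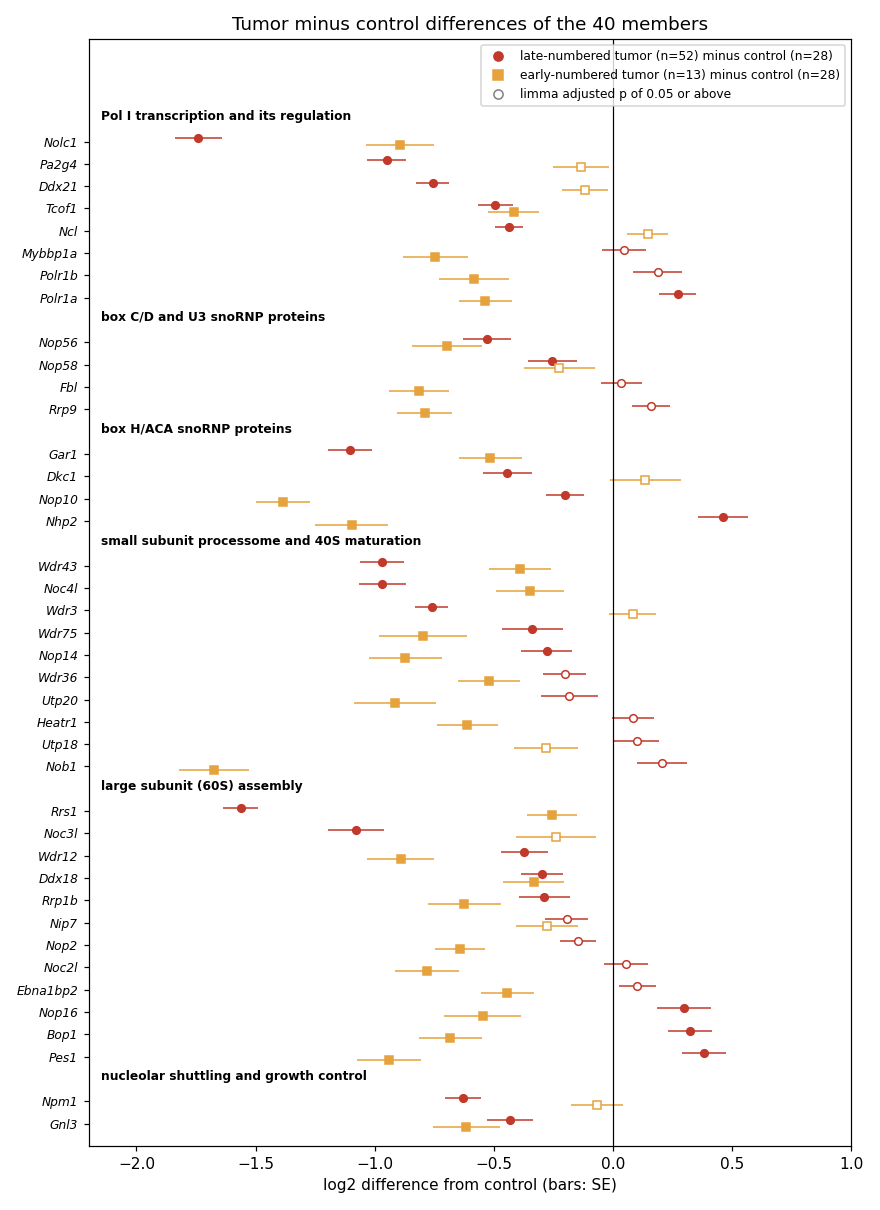
Log2 difference from control of each of the 40 members, grouped by role, in late-numbered (circles, n = 52) and early-numbered tumor arrays (squares, n = 13) against 28 control arrays, with bars for the standard error. Filled symbols passed limma's adjusted p of 0.05. Nolc1 and Rrs1 lie farthest left in late-numbered arrays, at −1.74 and −1.56, and Nob1 in early-numbered arrays, at −1.67.

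Among the genes of Pol I transcription and its regulation, 5 of 8 were lower and 1 higher in late-numbered arrays, and 5 were lower and 0 higher in early-numbered arrays. Nolc1, a nucleolar phosphoprotein that binds snoRNPs and Pol I, had the largest late-numbered difference of all members. Its level ran from 5.89 to 9.01 (median 7.73) in late-numbered arrays, from 7.54 to 9.21 (median 8.71) in early-numbered arrays and from 9.03 to 10.0 (median 9.42) in control arrays. All 52 late-numbered arrays and 10 of 13 early-numbered arrays lay below the lowest control array. The differences from control were −1.74 ± 0.10 (SE, adjusted p = 1.19e-28) and −0.89 ± 0.14 (adjusted p = 8.75e-08).

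Pa2g4, a growth-regulated binding protein found in the nucleolus, ran from 8.69 to 11.3 (median 9.28) in late-numbered arrays, from 9.64 to 10.4 (median 10.2) in early-numbered arrays and from 9.82 to 10.8 (median 10.3) in controls. Of the late-numbered arrays 48 lay below all controls and only array 19, at 11.3, lay above them. The difference was −0.95 ± 0.08 (adjusted p = 4.17e-18) in late-numbered arrays and −0.13 ± 0.12 (adjusted p = 0.321) in early-numbered arrays. The helicase Ddx21 followed the same pattern, at −0.76 in late-numbered arrays (adjusted p = 3.49e-17) and −0.12 in early-numbered ones (adjusted p = 0.289), as did nucleolin (Ncl), at −0.44 and 0.15. For Ddx21 this held for the brightest probe set alone. The other was lower in both sets, at −0.83 and −0.71 (adjusted p = 3.59e-07). Its difference between the sets was −0.11 (adjusted p = 0.362). The further probe sets of Ncl were mixed. The dimmest followed the pattern, at −0.57 (adjusted p = 2.5e-06) in late-numbered and −0.06 (adjusted p = 0.736) in early-numbered arrays. Another was lower in both sets, at −0.39 (adjusted p = 2.03e-04) and −0.47 (adjusted p = 0.00113). The rest were called in neither set, at 0.03 and 0.01 in late-numbered and −0.08 and 0.26 in early-numbered arrays.

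Polr1a and Polr1b, which encode the large catalytic subunits of Pol I, were not lower in late-numbered arrays. Polr1a was 0.27 higher in late-numbered (adjusted p = 0.00246) and 0.54 lower in early-numbered arrays (log2 difference −0.54, adjusted p = 2.39e-05). Polr1b was at 0.19 (adjusted p = 0.136) and −0.58 (adjusted p = 4.06e-04), and Mybbp1a, a Pol I repressor, at 0.05 and −0.75.

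The box C/D proteins carry out and scaffold ribose methylation. Fibrillarin (Fbl), the methyltransferase, and Rrp9, which belongs to the U3 snoRNP, were not called in late-numbered arrays (0.03 and 0.16) and were lower in early-numbered arrays (−0.81 and −0.79). Nop56 was lower in both sets by its brightest probe set, at −0.53 and −0.70. Its second probe set was at −0.15 (adjusted p = 0.222) in late-numbered and −1.10 (adjusted p = 3.06e-10) in early-numbered arrays. Nop58 was lower in late-numbered arrays, at −0.26 (adjusted p = 0.0360), with −0.23 (adjusted p = 0.178) in early-numbered arrays.

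The box H/ACA proteins, which together form the pseudouridylation enzyme, split in the late-numbered arrays, where 3 of 4 were lower and 1 higher. Gar1 ran from 7.75 to 10.5 (median 8.68) in late-numbered arrays, from 8.71 to 9.77 (median 9.35) in early-numbered arrays and from 9.26 to 10.4 (median 9.80) in controls. In late-numbered arrays 46 of 52 lay below all controls, and array 19 alone lay above. The differences were −1.11 ± 0.09 (adjusted p = 8.65e-19) and −0.52 ± 0.13 (adjusted p = 5.23e-04).

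Nhp2 had the largest rise of any member in late-numbered arrays. It ran from 6.83 to 9.40 (median 7.85) in late-numbered arrays, from 5.14 to 7.23 (median 6.54) in early-numbered arrays and from 6.50 to 8.33 (median 7.48) in controls. Of the late-numbered arrays 46 of 52 lay above the control mean and of the early-numbered ones 0 of 13. The differences were 0.46 ± 0.11 (adjusted p = 1.50e-04) and −1.10 ± 0.15 (adjusted p = 1.83e-09).

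Nop10, the smallest protein of this enzyme, ran from 10.2 to 12.3 (median 11.2) in late-numbered arrays, from 9.17 to 10.6 (median 10.0) in early-numbered arrays and from 10.6 to 11.9 (median 11.4) in controls. In early-numbered arrays 12 of 13 lay below all controls, and in late-numbered arrays 2 of 52. The differences were −0.20 ± 0.08 (adjusted p = 0.0306) and −1.39 ± 0.11 (adjusted p = 5.30e-19). Dkc1, the pseudouridine synthase itself, was lower in late-numbered arrays by its brightest probe set, at −0.44 (adjusted p = 2.05e-04), and lay at 0.14 (adjusted p = 0.435) in early-numbered arrays. Its other probe sets were not called in late-numbered arrays, at 0.02 (adjusted p = 0.923) and 0.09 (adjusted p = 0.475).

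**Figure D2:**
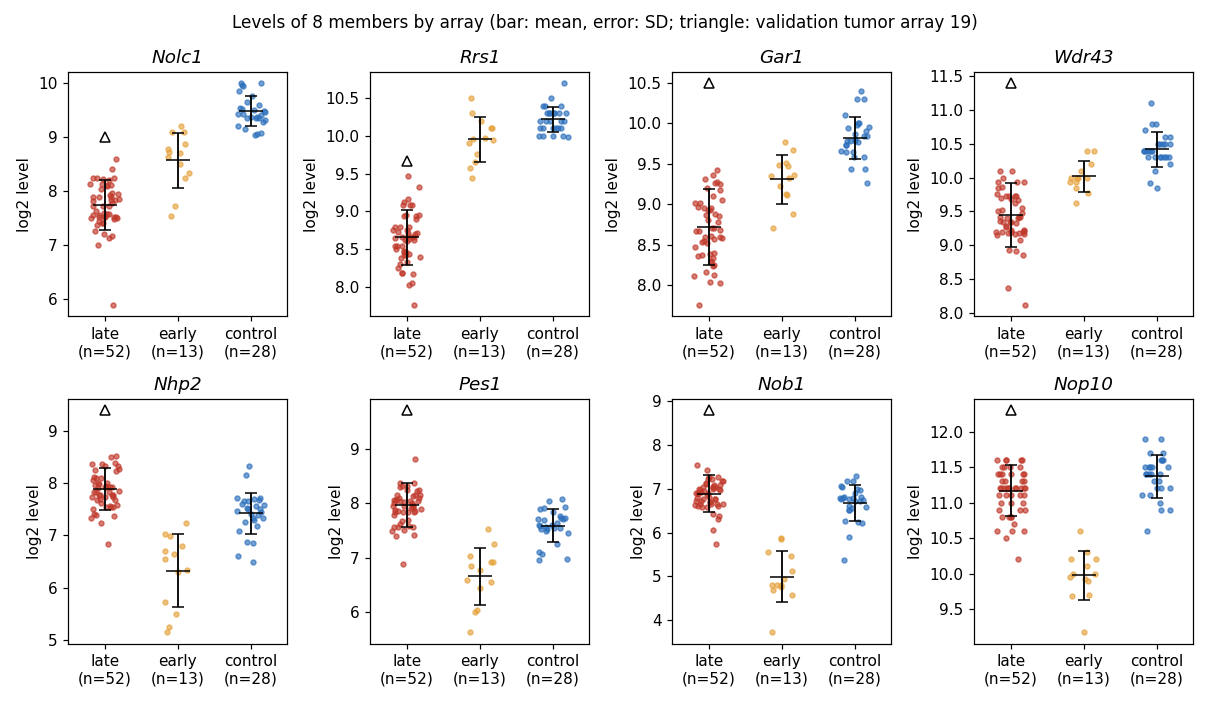
Log2 level of 8 members on each array (points) in late-numbered tumor, early-numbered tumor and control arrays, with the mean and standard deviation in black and array 19 of the validation tumors as a triangle. Nolc1 and Rrs1 are low in late-numbered arrays, whereas Nhp2, Pes1, Nob1 and Nop10 are low in early-numbered arrays, and array 19 is the highest late-numbered array in all 8.

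The small subunit processome assembles on the 5′ end of the precursor RNA. Of its 10 genes, 5 were lower and 0 higher in late-numbered arrays and 8 were lower and 0 higher in early-numbered arrays. Wdr43 had the largest difference among them in late-numbered arrays, with levels from 8.11 to 11.4 (median 9.40) against 9.62 to 10.4 (median 10.0) in early-numbered arrays and 9.84 to 11.1 (median 10.4) in controls. Of the late-numbered arrays 43 lay below all controls. The differences were −0.97 ± 0.09 (adjusted p = 3.03e-16) and −0.39 ± 0.13 (adjusted p = 0.00731). Noc4l and Wdr3 were at −0.97 and −0.76 in late-numbered arrays and at −0.35 (adjusted p = 0.0292) and 0.08 (adjusted p = 0.472) in early-numbered arrays.

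Nob1, the endonuclease that makes the last cut at the 3′ end of the small subunit RNA, had the largest early-numbered difference. It ran from 5.74 to 8.79 (median 6.91) in late-numbered arrays, from 3.72 to 5.87 (median 4.81) in early-numbered arrays and from 5.37 to 7.29 (median 6.76) in controls. Of the early-numbered arrays 9 of 13 lay below all controls and 13 of 13 below their mean. The differences were 0.21 ± 0.10 (adjusted p = 0.101) in late-numbered and −1.67 ± 0.15 (adjusted p = 3.27e-17) in early-numbered arrays.

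Utp20 ran from 4.79 to 9.42 (median 7.21) in late-numbered arrays, from 5.72 to 7.44 (median 6.41) in early-numbered arrays and from 6.55 to 7.87 (median 7.49) in controls, so that the sets overlapped. The differences were −0.18 ± 0.12 (adjusted p = 0.224) and −0.92 ± 0.17 (adjusted p = 3.94e-06). Nop14 and Wdr75 were lower in both sets and more so in early-numbered arrays, where they lay at −0.87 and −0.80, against −0.28 and −0.34 in late-numbered arrays. By their brightest probe sets, Heatr1 and Wdr36 were called in early-numbered arrays alone, at −0.61 and −0.52. The second probe set of Heatr1 gave the reverse. It was at −0.96 (adjusted p = 2.28e-10) in late-numbered and −0.08 (adjusted p = 0.72) in early-numbered arrays. For Heatr1 the difference between the sets was 0.70 by the brightest probe set and −0.89 (adjusted p = 2.82e-06) by the second.

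The genes of large subunit assembly were 5 lower and 3 higher of 12 in late-numbered arrays and 10 lower and 0 higher in early-numbered arrays. Rrs1, which brings the 5S particle into the large subunit, lay wholly below controls in late-numbered arrays. It ran from 7.76 to 9.67 (median 8.66) in late-numbered arrays, from 9.44 to 10.5 (median 9.96) in early-numbered arrays and from 9.98 to 10.7 (median 10.2) in controls. All 52 late-numbered arrays lay below every control, array 19 included, and 8 of 13 early-numbered arrays. The differences were −1.56 ± 0.07 (adjusted p = 1.65e-34) and −0.26 ± 0.10 (adjusted p = 0.0286), the second of which was −0.22 (adjusted p = 0.0729) without validation tumor array 2.

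Noc3l ran from 3.91 to 6.90 (median 5.34) in late-numbered arrays, from 5.23 to 7.06 (median 6.41) in early-numbered arrays and from 4.68 to 7.18 (median 6.47) in controls. The ranges overlapped, though 51 of 52 late-numbered arrays lay below the control mean. The differences were −1.08 ± 0.12 (adjusted p = 1.89e-13) and −0.24 ± 0.17 (adjusted p = 0.209). The second probe set, almost as bright, gave the other picture, at −0.11 (adjusted p = 0.448) in late-numbered and −0.92 (adjusted p = 4.82e-07) in early-numbered arrays. The difference between the sets was −0.84 by the brightest probe set and 0.81 by the second.

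Pes1, Bop1 and Wdr12 encode the PeBoW complex, which acts in the processing of the large subunit RNA. By their brightest probe sets they did not move as a unit in late-numbered arrays. Pes1 ran from 6.88 to 9.72 (median 7.96) in late-numbered arrays, from 5.62 to 7.53 (median 6.78) in early-numbered arrays and from 6.95 to 8.09 (median 7.61) in controls. Its differences were 0.38 ± 0.09 (adjusted p = 3.53e-04) and −0.94 ± 0.13 (adjusted p = 3.89e-09). Bop1 ran from 6.84 to 9.52 (median 7.59) in late-numbered arrays, from 5.20 to 7.43 (median 6.55) in early-numbered arrays and from 6.51 to 7.71 (median 7.37) in controls, with differences of 0.32 ± 0.09 (adjusted p = 0.00217) and −0.68 ± 0.13 (adjusted p = 5.85e-06).

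For both genes most late-numbered arrays lay above the control mean and most early-numbered arrays below it. Above the control mean of Pes1 and Bop1 lay 43 and 44 of 52 late-numbered arrays, and 0 and 1 of 13 early-numbered arrays. The second probe sets of Pes1 and Bop1 lay below the median level and did not show the rise. They were at −0.55 (adjusted p = 8.48e-05) and −0.13 (adjusted p = 0.311) in late-numbered arrays. In early-numbered arrays they were at −0.40 (adjusted p = 0.0407) and −0.31 (adjusted p = 0.0557). Neither gene was called higher in late-numbered arrays of both cohorts. Wdr12 was lower in both sets by its brightest probe set. It ran from 6.36 to 9.02 (median 7.30) in late-numbered arrays, from 5.85 to 7.38 (median 6.93) in early-numbered arrays and from 6.86 to 8.39 (median 7.74) in controls, with differences of −0.37 ± 0.10 (adjusted p = 9.08e-04) and −0.89 ± 0.14 (adjusted p = 7.04e-08). By its second probe set it was lower in late-numbered arrays, at −0.72 (adjusted p = 6.64e-07), and not called in early-numbered ones, at 0.12 (adjusted p = 0.561). The difference between the sets was 0.52 by the brightest probe set and −0.84 (adjusted p = 6.08e-06) by the second.

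Nop16, which is needed for large subunit assembly in yeast, ran from 3.26 to 6.91 (median 5.71) in late-numbered arrays, from 3.95 to 5.35 (median 4.94) in early-numbered arrays and from 4.21 to 6.59 (median 5.46) in controls. Its differences were 0.30 ± 0.11 (adjusted p = 0.0244) and −0.55 ± 0.16 (adjusted p = 0.00236). Without control array 11 of the training cohort the late-numbered one was 0.26 (adjusted p = 0.0502). It was called in neither cohort alone (adjusted p = 0.159 in training and 0.144 in validation). The second probe set of Nop16, almost as bright, was called in neither set, at −0.22 (adjusted p = 0.107) and 0.01 (adjusted p = 0.952). The RNA methyltransferase Nop2 and Noc2l were lower in early-numbered arrays, at −0.64 and −0.78, and not called in late-numbered arrays, at −0.15 and 0.06. Of the shuttling proteins, Npm1 (nucleophosmin) was lower in late-numbered arrays, at −0.63 (adjusted p = 1.17e-11), and lay at −0.07 in early-numbered arrays (adjusted p = 0.605), whereas its second probe set was at −0.21 (adjusted p = 0.0655) and −0.56 (adjusted p = 3.24e-04). The difference between the sets was −0.56 by the first and 0.35 (adjusted p = 0.0135) by the second. Gnl3 (nucleostemin) was lower in both, at −0.43 and −0.62.

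Many of these differences depended on which probe set of a gene was read. The 40 members had 89 probe sets, of which 78 lay above the median level, and 25 members had several that did. In late-numbered arrays these 25 gave the same call by every such probe set in 9 cases, a call by some and none by others in 13, and opposite calls in 3 (Pa2g4, Rrp1b and Tcof1). Of the 22 members lower in late-numbered arrays, 6 were lower by every one of several probe sets (Ddx18, Ddx21, Nop10, Rrs1, Wdr12 and Wdr43), 6 had a single probe set above the median, and 10 were not lower by every probe set.

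Nolc1 was the clearest case. Its brightest probe set was at −1.74 in late-numbered arrays, whereas the others were at 0.09 (adjusted p = 0.367) and 0.04 (adjusted p = 0.819). In early-numbered arrays all of them were lower, at −0.89, −0.47 and −1.0. Pa2g4 had 3 probe sets lower in late-numbered arrays, at −0.95, −0.78 and −0.97, which lay at −0.13, −0.17 and 0.17 in early-numbered arrays. Its other probe sets were at 0.15 and 0.34 in late-numbered and at −1.50 and −1.51 in early-numbered arrays.

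Tcof1 was at −0.49 by its brightest probe set in late-numbered arrays and at 0.54 and 0.22 by the others, with all of them lower in early-numbered arrays (−0.42, −0.91 and −0.77). Noc2l and Heatr1, not called in late-numbered arrays by the brightest probe set (0.06 and 0.08), were at −1.05 and −0.96 by the next one. The probe sets of Rrs1 stood at −1.56 and −1.23, those of Wdr43 at −0.97 and −0.51, those of Ddx21 at −0.76 and −0.83 and those of Nhp2 at 0.46 and 0.44. In early-numbered arrays 13 members were lower by every one of several probe sets, among them Nolc1, Fbl, Nhp2, Nop10 and Noc4l, and no member had opposite calls. Between late-numbered and early-numbered arrays 8 members had opposite calls by different probe sets. How often the probe sets of other genes disagree is not given here. These counts can therefore not be called particular to the members.

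**Figure D3:**
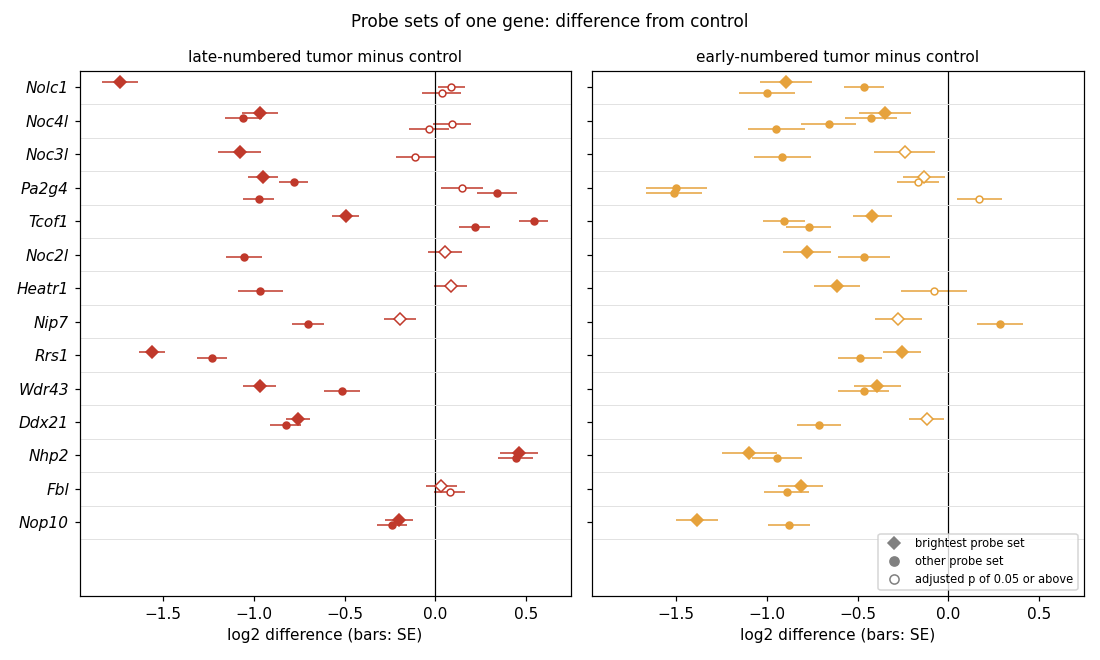
Log2 difference from control of every probe set above the median level for 14 members, in late-numbered (left) and early-numbered tumor arrays (right), with bars for the standard error. Diamonds mark the brightest probe set and filled symbols an adjusted p under 0.05, and in late-numbered arrays the probe sets of Nolc1, Noc4l, Pa2g4 and Tcof1 lie on both sides of 0, whereas the probe sets of Rrs1, at −1.56 and −1.23, lie together.

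Myc itself differed between the sets. It was read by its brightest probe set, and whether that also reads the transgene is not stated in the sources used here. Myc ran from 7.25 to 12.0 (median 8.76) in late-numbered arrays, from 4.46 to 7.76 (median 6.47) in early-numbered arrays and from 6.59 to 9.06 (median 7.86) in controls. Its difference from control was 0.84 ± 0.18 (SE, adjusted p = 3.49e-05) in late-numbered arrays and −1.31 ± 0.25 (adjusted p = 5.92e-06) in early-numbered arrays, and the sets of tumor arrays differed by 2.15 ± 0.23 (adjusted p = 1.13e-13). In late-numbered arrays Myc was thus higher while 22 of the 40 members were lower than in controls.

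Across arrays of the same set, members tended to follow Myc. In late-numbered arrays 38 of 40 members had a positive slope on Myc and 0 a negative one in a limma fit with cohort as a covariate, against 16.9% and 10.7% of all genes. Pearson r was positive for 40 of 40 and ran from 0.31 for Noc3l to 0.71 for Nop56, with a median of 0.57 against −0.05 over all genes. In control arrays 22 members had a positive slope and 0 a negative one, against 7.58% and 1.28% of all genes, and r ran from −0.05 for Tcof1 to 0.79 for Wdr36, with a median of 0.58. In the 13 early-numbered arrays 0 members and 0% of all genes passed in either direction, 6 members were positive at an unadjusted p under 0.05, and r ran from −0.60 for Bop1 to 0.74 for Wdr36, with a median of 0.37, or 0.08 without the 2 arrays farthest from the Myc median. These are 120 relations, 40 members in 3 sets, and points of a set share its handling and its mix of leukocytes.

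The 5 members closest to Myc in late-numbered arrays were Nop56, Noc2l, Gnl3, Nob1 and Mybbp1a. Nop56 had r = 0.71 (permutation p = 1e-05, the smallest that 100000 resamples can give) and Spearman's rho = 0.55 (permutation p = 6e-05), with a limma adjusted p of 1.46e-06. It kept r = 0.56 without the 2 arrays farthest from the Myc median, and had 0.40 within training and 0.83 within validation. Noc2l had r = 0.69 (permutation p = 1e-05, adjusted p = 4.90e-06) and rho = 0.57 (permutation p = 3e-05), and r = 0.58 without those 2 arrays. Gnl3, Nob1 and Mybbp1a had r = 0.68, 0.67 and 0.66, and 0.47, 0.47 and 0.42 without the 2 arrays. Spearman's rho was 0.55, 0.49 and 0.42 for these genes, in the same order (permutation p = 4e-05, 0.00018 and 0.00234), and the limma adjusted p was 4.37e-06, 1.09e-05 and 1.24e-05. Within training their r was 0.48, 0.42 and 0.45, and within validation 0.78, 0.77 and 0.73. Without array 19 r was 0.57 for Nop56, 0.55 for Noc2l, 0.50 for Gnl3, 0.47 for Nob1 and 0.44 for Mybbp1a, and Dkc1 (0.48), Wdr75 (0.46), Wdr43 (0.45) and Ncl (0.44) then lay above Mybbp1a.

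The late-numbered relation rested in large part on array 19. Without it 11 members had a positive slope, against 4.12% of all genes, and the median r was 0.34. Without the 2 arrays farthest from the Myc median 13 did, against 4.10% of all genes, with a median r of 0.35. Within the training cohort alone, which lacks array 19, 0 members and 0% of all genes passed, 10 members were positive at an unadjusted p under 0.05, and the median r was 0.27. Within validation it was 38 members (16.2% of all genes) and 0.70. The sign held more widely than the calls: r was above 0 for 40 of 40 members without array 19 and for 39 of 40 within training.

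In control arrays the relation grew when the 2 arrays farthest from the Myc median were left out, to 31 members (11.6% of all genes) and a median r of 0.74. Within cohorts it was 0 members in training and 17 in validation (0% and 6.17% of all genes), with median r of 0.51 and 0.64, and 15 training members were positive at an unadjusted p under 0.05. Given the B cell, T cell and neutrophil marker means of each array, 11 members kept a positive slope in late-numbered arrays (4.53% of all genes) and 0 in control arrays (0% of all genes), and the median partial r was 0.31 and 0.27. The members holding the E-box hexamer had r in late-numbered arrays of 0.64 for Nop2 and Wdr43, 0.66 for Mybbp1a, 0.62 for Utp20, 0.46 for Utp18 and 0.44 for Pes1. Without array 19 these were 0.33 for Nop2, 0.45 for Wdr43, 0.44 for Mybbp1a and Utp20, 0.31 for Utp18 and 0.10 for Pes1.

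**Figure D4:**
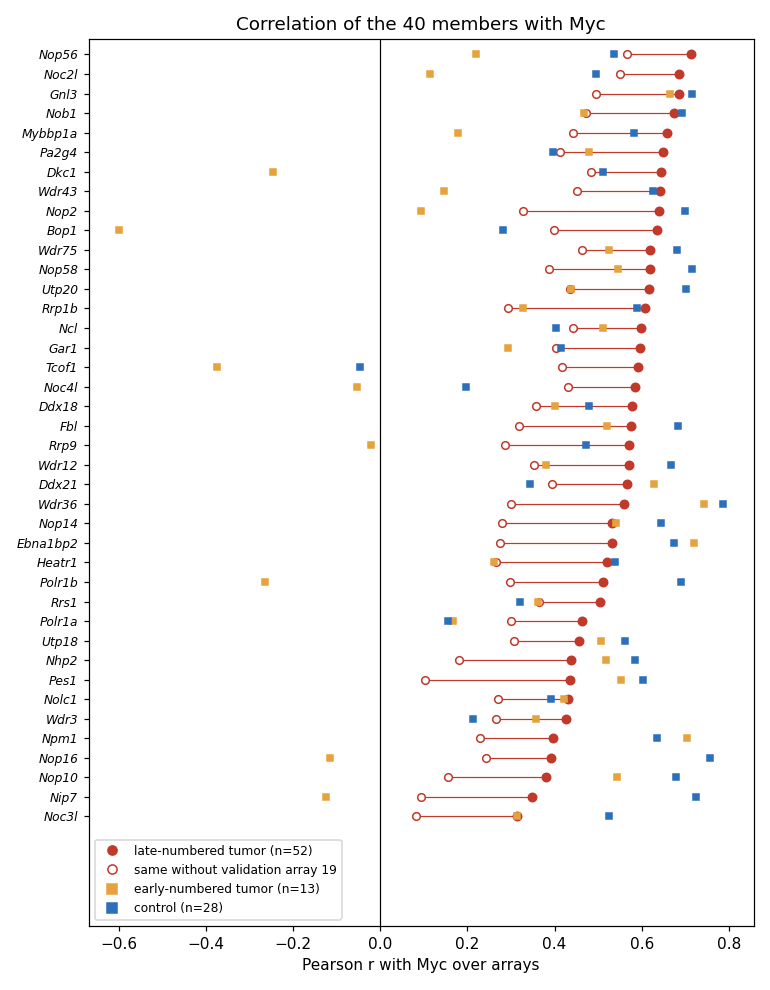
Pearson r with Myc over arrays for each of the 40 members, in late-numbered tumor arrays with (filled circles, n = 52) and without (open circles) array 19 of the validation tumors, early-numbered tumor arrays (n = 13) and control arrays (n = 28). The late-numbered median is 0.34 without array 19 and 0.57 with it, and early-numbered arrays scatter from −0.60 to 0.74.

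**Figure D5:**
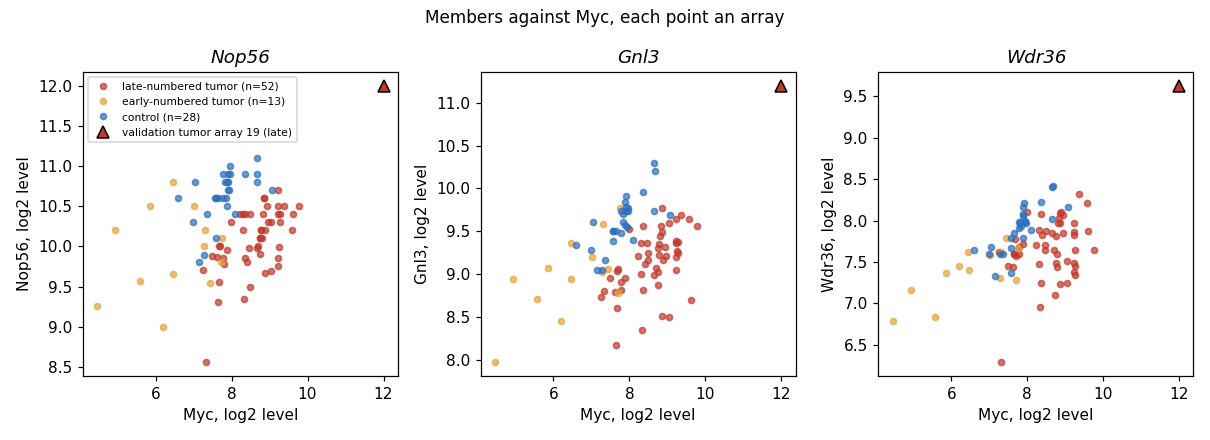
Log2 level of Nop56, Gnl3 and Wdr36 against that of Myc on each array, with array 19 of the validation tumors as a triangle at a Myc level of 12.0. Late-numbered arrays (Myc median 8.76) lie mostly to the right of control arrays (7.86) and early-numbered arrays (6.47) to the left.

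Members also varied together. The median Pearson r between pairs of members, over 780 pairs, was 0.70 in late-numbered arrays (0.59 without array 19), 0.38 in early-numbered arrays and 0.61 in control arrays. These are descriptions, since all pairs share the same arrays.

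Beyond the members, 126 other ribosome biogenesis genes were measured. In late-numbered arrays 58 were lower and 19 higher, with a median of −0.13, and in early-numbered arrays 90 were lower and 8 higher, with a median of −0.54. The late-numbered counts make 46% and 15.1%, against 20.5% and 25.6% of all genes (31.8% and 34.2% of those above the median level). The early-numbered counts make 71.4% and 6.35%, against 29% and 34.3% of all genes (46.9% and 16.3% of those above the median level). By smallest p over all tumor arrays the leading genes were Nop53, at −0.71 in late-numbered and −0.80 in early-numbered arrays, the exosome subunit Exosc7 (−1.09 and −1.33), the Pol I and III subunit Polr1c (−0.73 and −0.62) and the helicase Dhx33 (−0.81 and −0.58). The difference between the sets of tumor arrays was 0.09 (adjusted p = 0.310) for Nop53, 0.24 (adjusted p = 0.133) for Exosc7, −0.11 (adjusted p = 0.335) for Polr1c and −0.23 (adjusted p = 0.0680) for Dhx33, against −1.31 for Rrs1.

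Of 41 cytosolic ribosomal protein genes, the building blocks that biogenesis factors assemble, 17 were lower and 5 higher in late-numbered arrays and 35 lower and 1 higher in early-numbered arrays, with medians of −0.05 and −0.53. Of 16 other canonical Myc targets 5 (31.2%) were lower and 4 (25%) higher in late-numbered and 12 (75%) lower and 2 (12.5%) higher in early-numbered arrays. Among them Ldha, a glycolytic enzyme, was at 0.77 and −0.41, the repair enzyme Apex1 at −0.76 and −1.0, and Eif4e, the cap-binding translation factor, at −0.64 and 0.44. Of 11 genes of Myc, its partners and its antagonists, 5 were higher and 2 lower in late-numbered arrays and 4 higher and 3 lower in early-numbered arrays. Mxd3, which competes for Max, was at 0.35 and 0.41, and Mga, which also binds Max, at −0.38 and 0.50. Of 11 proliferation genes 4 were higher and 0 lower in late-numbered arrays and 6 higher and 1 lower in early-numbered arrays, with Mki67 at 0.83 and 1.14. All genes stood at 20.5% lower and 25.6% higher in late-numbered arrays, and at 29% and 34.3% in early-numbered ones. Genes above the median level stood at 31.8% and 34.2%, and at 46.9% and 16.3%. The late-numbered shares of Myc targets lower (31.2%) and proliferation genes higher (36.4%) lay near those of genes above the median level.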

How the data were processed

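The deposited values are log2 levels from Affymetrix mouse arrays, which the authors made with RMA (its version, and whether the methods' standardization on control probe sets is in them, are not stated in the sources used here). RMA corrects background, quantile-normalizes and summarizes probes, and so holds no counts or depth. The number of arrays limits the precision. Blood RNA was amplified with NuGEN Ovation before hybridization. All 93 arrays mapped to the labels and 0 columns were left out. Of 45101 probe sets, 64 AFFX controls were set aside and 45037 tested; 34945 had a single gene symbol, 932 several and 9160 none. Genes were named from single symbols in the platform annotation.

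Differences were tested with limma 3.58.1 in R 4.3.3 (lmFit, eBayes with trend, cohort as covariate, two-sided, Benjamini-Hochberg over all probe sets, called at an adjusted p under 0.05). Late-numbered and early-numbered tumor and control arrays entered 1 model. Slopes on Myc were fitted per set and adjusted likewise, in place of a planned adjustment over the members. Permutation p for r and rho used 100000 resamples, two-sided, unadjusted. The model was tested on simulated data. The methods count mice and arrays alike, but no label gives an animal, so p-values measure the spread between arrays. Alternatives changed the normalization, covariates, probe sets, arrays and cohorts.

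All members may be named. Full values were given for the 4 largest rises and 4 largest falls in late-numbered arrays, the next 4 by size in early-numbered arrays, and Nolc1, Rrs1, Wdr43 and Pa2g4; other lists gave up to 4 genes by smallest p. The members and lists were chosen with earlier results of these data known. Python 3.11.15 with numpy 2.4.6, pandas 2.3.3 and matplotlib 3.10.9 did the rest.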

Additional observations from a re-analysis of the deposited data

Results flagged for a closer look

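In 5 members the late-numbered and early-numbered tumor arrays were called in opposite directions against control, and the difference between the sets itself passed limma's adjusted p of 0.05. It was 1.56 on the log2 scale for Nhp2, 1.32 for Pes1, 1.01 for Bop1, 0.84 for Nop16 and 0.81 for Polr1a, late-numbered minus early-numbered. The comparisons with control share the 28 control arrays. The same pattern of calls was found in 10.2% of all genes and in 17.1% of those above the median level. With each cohort fitted alone, 0 members were called higher than control in late-numbered arrays of both cohorts. That share was 13.9% of all genes and 22% of those above the median level. By the mean of all probe sets of a gene, the late-numbered difference from control was −0.08 (adjusted p = 0.468) instead of 0.38 for Pes1, 0.10 (adjusted p = 0.357) for Bop1 and 0.04 (adjusted p = 0.771) for Nop16, and the early-numbered one was −0.27 (adjusted p = 0.0786) for Nop16, so that the opposite calls of these 3 genes did not hold.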

How the results depend on the processing

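The counts of members called against control depended most on covariates. With the first 3 components of the control probe sets, which differ between the sets, 1 member was lower and 8 higher in late-numbered arrays and 0 were lower in late-numbered than in early-numbered arrays. With the B cell, T cell and neutrophil means as covariates, 10 were lower and 12 higher in all tumor arrays, 11 and 15 in late-numbered arrays and 13 and 5 in early-numbered arrays. Array weights gave 5 higher in all tumor arrays. The mean of all probe sets gave 3 higher in late-numbered arrays, and median centring or dividing the controls between the sets 1 higher in early-numbered arrays. The validation cohort alone gave 11 lower in all tumor arrays and 12 lower and 3 higher in late-numbered arrays, and training alone 1 higher in late-numbered arrays. Same-numbered tumor and control arrays did not deviate together (28 pairs, r −0.468 to 0.237, median −0.013, 11 above 0.1). With the replicate number as a block, 32 members were lower and 0 higher in all tumor arrays. The block gave 23 and 2 in late-numbered arrays and 30 and 0 in early-numbered arrays. The shares of all genes in the fits with covariates, array weights or a block are not given here.

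Of the other ribosome biogenesis genes in all tumor arrays, 3 were higher as reported, and 6 by the mean of probe sets, 5 after quantile normalization, 13 with the 3 components, 8 with the actin difference, 21 with the leukocyte lists, 17 with array weights, 1 with the replicate block and 0 in training alone. Lower were 62 as reported, 18 with the leukocyte lists and 32 in validation alone. In late-numbered arrays 19 were higher and 58 lower as reported. Higher were 42 with the leukocyte lists, 7 with the replicate block, 10 in training alone and 12 with divided controls, and lower were 1 with the 3 components, 23 with the leukocyte lists and 35 in validation alone. In early-numbered arrays 8 were higher and 90 lower as reported, and 5 higher by the mean of probe sets, 14 after quantile normalization, 2 with the actin difference, 19 with the leukocyte lists and 5 with the replicate block, and 42 lower with the leukocyte lists.

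Signs turned in 15 values of the 14 members given in full. With the 3 components the late-numbered differences were 0.29 for Noc3l, 0.51 for Nop10, 0.83 for Utp20, 0.32 for Wdr12 and 0.03 for Wdr43. With the leukocyte lists they were 0.13 for Nop10, 0.38 for Utp20 and 0.02 for Wdr12, and the early-numbered ones 0.03 for Nop16, 0.11 for Rrs1, 0.18 for Noc3l, 0.14 for Wdr43 and 0.22 for Pa2g4. With the actin difference Noc3l was at 0.40 in early-numbered arrays, and by the mean of probe sets Pes1 was at −0.08 in late-numbered arrays. The causes were not tested.

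The number of members with a positive slope on Myc in late-numbered arrays was 38 as reported, 0 in training alone, 13 without the 2 arrays farthest from the Myc median, 11 given the leukocyte lists and 11 without array 19. In control arrays it was 22, and 0 in training alone or given the leukocyte lists. Leaving out validation tumor array 2, 9 or 19, training tumor array 22 or training control array 11, chosen after seeing the data except for array 19 in the group comparisons, gave 25 or 26 members lower in all tumor arrays, 22 to 25 in late-numbered and 29 to 32 in early-numbered arrays. Without validation tumor array 2 the early-numbered Rrs1 difference was −0.22 and no longer called. Levels near the floor of an array limit what can be read of dim probe sets, and no member lay below the median by its mean over all 93 arrays. In early-numbered arrays alone, the medians of Polr1b and Rrp9, 4.68 and 4.78, lay below that median of 4.79. Nob1 had a median of 4.81 there, with a lowest value of 3.72.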
